A study of Rattus norvegicus with 12 samples.

Results

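The insulin-like growth factor (IGF) axis was examined at the RNA level in PAC1 cells, a rat pulmonary artery smooth muscle line, after siRNA knockdown of each of 3 RNA-binding proteins. The axis was represented by 10 genes, which encode the binding proteins Igfbp2 to Igfbp7, the ligands Igf1 and Igf2, and the receptors Igf1r and Igf2r. They are 10 of the 33294 gene symbols in the count table, and all 10 were found there. The set was chosen by measured values, because Igfbp7 RNA was strongly reduced in QKI knockdown against control, so member values for that contrast are given as a description without a p-value. Of the 10, 9 had enough counts to be tested, among 18438 tested genes. Igf1 was left out by the filter on low counts.

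All 4 groups were PAC1 cells grown towards the more differentiated state in serum, reverse transfected in the same way, with 3 libraries each. The study reports that the control cells of this experiment were less differentiated than those of its other experiment, in splicing and in RNA levels. The control group received the scrambled siRNA C2, and the others received an siRNA against Rbpms, whose RNA-binding product is enriched in smooth muscle cells, against Rbfox2, or against Qk, the gene of QKI, which are both more widely expressed splicing regulators. The labels give 90 pmol of siRNA, a repeat after 24 h and collection after a further 48 h, whereas the study's text describes longer intervals, and the difference was not resolved. Each target was depleted with 1 siRNA sequence only, in 1 cell line, so effects of the target and of the oligo itself cannot be told apart. The study calls its knockdowns biological replicates, and the labels only number the 3 libraries of a group.

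IGF1 and IGF2 are secreted peptides that signal mainly through IGF1R, a receptor tyrosine kinase acting through IRS adaptors, PI3 kinase and AKT. IGF2R, the cation-independent mannose 6-phosphate receptor, binds IGF2 and carries it to lysosomes. The IGFBP proteins bind the ligands outside the cell, prolong their life, hold them away from the receptor or deliver them, and are themselves cleaved by proteases. IGFBP7 binds IGFs with low affinity and is a secreted protein of vessel walls. In smooth muscle, IGF signalling is known for both growth and the maintenance of contractile cells.

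The siRNA sense strands are shown because each group is defined by one of them. They are written 5′ to 3′ in lower case, from the study's oligo list.
C2: aagguccggcucccccaaaug
RBPMS: ggcggcaaagccgagaaggcgaaca
RBFOX2: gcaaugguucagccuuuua
QK: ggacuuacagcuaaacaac

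The promoters of Igfbp7 and Igfbp4 are shown because both genes passed the limits of the test used below with enough counts in every library, in opposite directions. The sequences are the 250 bases upstream of the annotated start in the RefSeq promoter table of the rat assembly GRCr8, which held all 10 members. Both are on the plus strand, Igfbp7 at chr14:31091486-31091735 and Igfbp4 at chr10:84491221-84491470. Capitals mark matches on either strand to the GC box core GGGCGG, the TATA box TATAAA or the CCAAT box CCAAT.
Igfbp7: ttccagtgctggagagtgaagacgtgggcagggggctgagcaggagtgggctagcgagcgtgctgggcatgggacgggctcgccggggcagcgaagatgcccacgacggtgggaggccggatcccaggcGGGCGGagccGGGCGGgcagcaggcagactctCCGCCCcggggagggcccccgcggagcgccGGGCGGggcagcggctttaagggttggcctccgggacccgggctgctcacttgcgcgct
Igfbp4: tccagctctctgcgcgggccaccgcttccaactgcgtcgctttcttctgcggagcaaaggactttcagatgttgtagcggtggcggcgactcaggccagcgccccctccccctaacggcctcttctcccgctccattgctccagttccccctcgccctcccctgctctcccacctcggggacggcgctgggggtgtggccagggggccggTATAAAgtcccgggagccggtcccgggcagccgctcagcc
The Igfbp7 window held 26 CpG dinucleotides, 4 GC box matches, no TATA box match and no CCAAT match. The Igfbp4 window held 21 CpG, 1 TATA box match near the start and neither of the other motifs. Over all 27456 promoters of this length the median was 6 CpG, 32.4% held the GC box, 13.1% the TATA box and 34.3% the CCAAT box. Promoter activity was not measured in these data.

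Library totals ranged from 111 to 152 M counts. Levels are given as CPM, the counts scaled to a common library size after TMM adjustment, and they can be compared between groups for a gene but not between genes, since transcript length was not taken into account. Target RNA was reduced in each knockdown. It fell from 40.7 to 7.21 CPM for Rbpms, from 154 to 37.3 CPM for Rbfox2 and from 233 to 26.6 CPM for Qk. Target RNAs also moved where another target was depleted. Loss of RBFOX2 left Rbpms at 56.9% of its control level and Qk at 74.5%. Cells depleted of QKI held Rbpms at 71.3% and Rbfox2 at 90.2%, and those depleted of RBPMS held Rbfox2 at 92.0% and Qk at 113%. The part of these shifts in the results that follow was not tested. RBPMS-KD 2 stood apart from the other RBPMS-KD libraries, with a chi-square per degree of freedom of 57.8 and 45.6 against 4.64 to 21.5 for the other 10 replicate pairs. Some of the results in that knockdown are therefore also given without it. The lower Rbfox2 in RBPMS knockdown did not pass the p limit without it (edgeR adjusted p = 0.0538). The markers of smooth muscle did not move as 1 group. The summed level of 8 of them was 2117 to 2181 CPM in control, 1082 to 1191 CPM in RBPMS knockdown, 835 to 933 CPM in RBFOX2 knockdown and 1457 to 1545 CPM in QKI knockdown, and it was carried by Acta2, Tagln and Myl9. Acta2 was at 31.9%, 23.2% and 44.9% of control in the 3 knockdowns in that order, and Myl9 at 42.5%, 44.5% and 63.4%. Cnn1 was at 40.2%, 18.8% and 72.0%, Tagln at 75.8%, 47.8% and 102%, and Smtn at 93.3%, 113% and 72.6%. Myh11 was instead at 127%, 207% and 114%, Des at 157%, 114% and 197%, and Myocd at 112%, 103% and 172%. In control, Acta2 was at 989.8 CPM, and Cnn1 and Myh11 were at 6.43 and 6.48 CPM. Because these are bulk RNA samples, fewer cells expressing a gene and less RNA per cell cannot be told apart.

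A gene was called changed when edgeR's quasi-likelihood test gave an adjusted p (Benjamini-Hochberg, over all 18438 genes) under 0.05 and the absolute log2 fold change exceeded 1, and was said to differ when the adjusted p alone passed. Igfbp3 is left out of the counts that follow, because it passed the filter on low counts only through the groups in which it is high, which favours the call of a rise. Igf2 also passed the filter only through knockdown libraries, so the same limit applies to it. It was nevertheless kept, and the shares of 8 and 7 members below include this gene that the filter selected. In the reported fit it was not called changed or said to differ in any comparison. Against control, 2 of the other 8 members changed in RBPMS knockdown (Igfbp4 higher, Igfbp7 lower), where 9.66% of all tested genes changed. In RBFOX2 knockdown 1 of 8 changed (Igfbp4, higher), against 11.7% of all genes. Igfbp7 chose the set through these same control libraries, and without it 1 of 7 members changed in each of these 2 knockdowns. In QKI knockdown Igfbp7 alone lay past both limits, where 17.5% of all genes changed, and nothing is read from this count because the set was chosen on it. By adjusted p alone, 4 and 5 of 8 members differed in RBPMS and RBFOX2 knockdown, against 59.4% and 60.3% of all genes, so these shares were near the background. Without Igfbp7, 3 and 4 of 7 members differed. The share of all genes that differed in QKI knockdown was 66.9%. The median log2 fold change of the 8 members was 0.23, 0.27 and -0.13 in the 3 knockdowns, and that of all genes 0.0085, 0.015 and 0.0070. Without Igfbp7 the member median was 0.43, 0.39 and 0.20. These member medians include Igf2, at 0.95, 1.11 and 1.42, which only knockdown libraries carried past the filter. Nothing is therefore read from their distance to the medians of all genes. The 3 comparisons share the same control libraries.

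**Figure D1:**
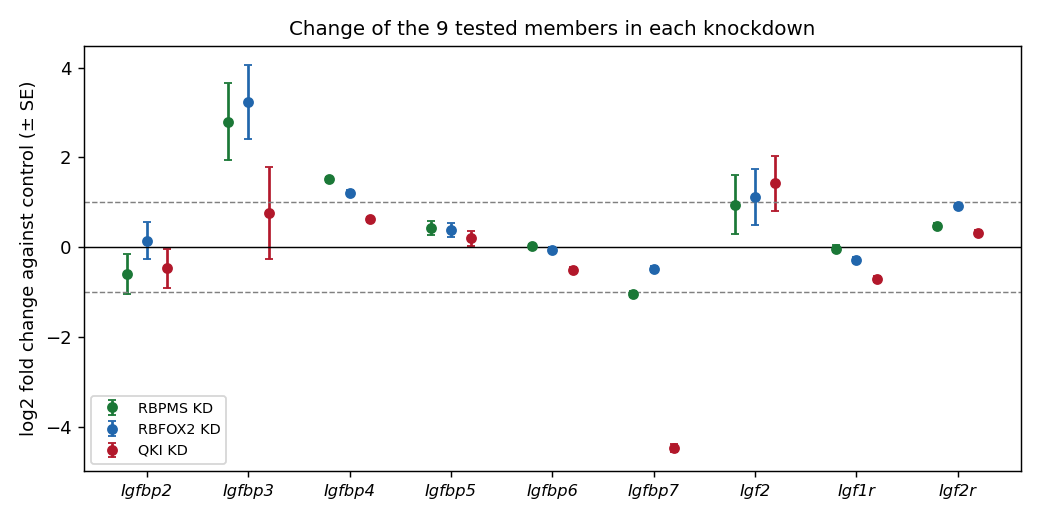
Log2 fold change against control (vertical axis, ± SE from the fit over 12 libraries) of the 9 tested members in each knockdown, with dashed lines at the fold limit of the call. Igfbp4 was higher in every knockdown, while Igfbp7 lay lowest in QKI knockdown at -4.46. Points with wide bars are genes with few counts.

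Igfbp7 was lower than control in every knockdown. The control libraries gave 128, 115 and 141 CPM, the RBPMS-KD libraries 58.2, 62.2 and 67.4 CPM, the RBFOX2-KD libraries 96.8, 93.5 and 85.9 CPM, and the QKI-KD libraries 5.80, 6.39 and 5.27 CPM. No 2 groups overlapped, and the order was control, RBFOX2, RBPMS and QKI from high to low. QKI knockdown retained 4.54% of the control mean, a log2 fold change of -4.46 (SE 0.087). This still rested on 653 to 803 counts per library, well above the detection limit. In RBPMS knockdown Igfbp7 fell by 1.03 on the log2 scale (SE 0.072, edgeR adjusted p = 1.52e-09), to 48.9% of control. This call lies at the fold limit, since the log2 fold change was -0.96 without control 3 and -0.98 without RBPMS-KD 1, while the adjusted p stayed under 0.05. In RBFOX2 knockdown the level was 71.9% of control, with a log2 change of -0.48 (SE 0.070, adjusted p = 1.59e-05), below the fold limit. These 2 tests use the control libraries on which the choice of the set also rested.

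A comparison free of those libraries is that between RBFOX2 and RBPMS knockdown, in which Igfbp7 was higher in RBFOX2 knockdown by 0.56 on the log2 scale (SE 0.071, edgeR adjusted p = 3.80e-06). QKI knockdown lay below RBPMS knockdown by a log2 fold change of -3.43 (SE 0.085) and below RBFOX2 knockdown by -3.99 (SE 0.086), given without p because the QKI-KD libraries chose the set. Markers of other cell types were looked at beside this result. The endothelial markers Cdh5 and Pecam1 summed to 6.46 to 7.61 CPM in control, 5.35 to 6.21 CPM in RBPMS knockdown, 2.83 to 3.69 CPM in RBFOX2 knockdown and 2.70 to 3.48 CPM in QKI knockdown. Cdh5 made up nearly all of this, while Pecam1 went the other way, with a control mean of 0.0923 CPM and means of 0.302, 0.137 and 0.224 CPM for the knockdowns in that order. The epithelial markers Epcam and Cdh1 summed to 0.114 to 0.175 CPM in control and 0.635 to 0.928 CPM in QKI knockdown, and the leukocyte markers Cd68 and Ptprc to 0.972 to 1.18 and 1.94 to 2.11 CPM, with Ptprc at 0 to 2 counts per library in both groups. The part of these markers in the Igfbp7 result was not tested.

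Igfbp4, a binding protein that mostly holds IGFs back from their receptor, moved the other way. It was at 7.06, 6.72 and 6.97 CPM in control, 19.6, 20.1 and 19.4 CPM in RBPMS knockdown, 15.7, 16.3 and 16.2 CPM under RBFOX2 knockdown, and 10.7, 11.3 and 10.03 CPM in QKI knockdown. All 4 groups were separate from each other, with control lowest. Igfbp4 rose in RBPMS knockdown by 1.51 on the log2 scale (SE 0.052, edgeR adjusted p = 2.65e-13) and in RBFOX2 knockdown by 1.22 (SE 0.052, adjusted p = 2.38e-12). The QKI knockdown value was 0.62 (SE 0.053). The Igfbp4 to Igfbp7 ratio of counts within each library, which does not depend on library scaling, was 0.0543 ± 0.0045 (SD, n = 3) in control, 0.175 ± 0.013 in RBFOX2 knockdown, 0.316 ± 0.025 in RBPMS knockdown and 1.84 ± 0.070 in QKI knockdown.

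**Figure D2:**
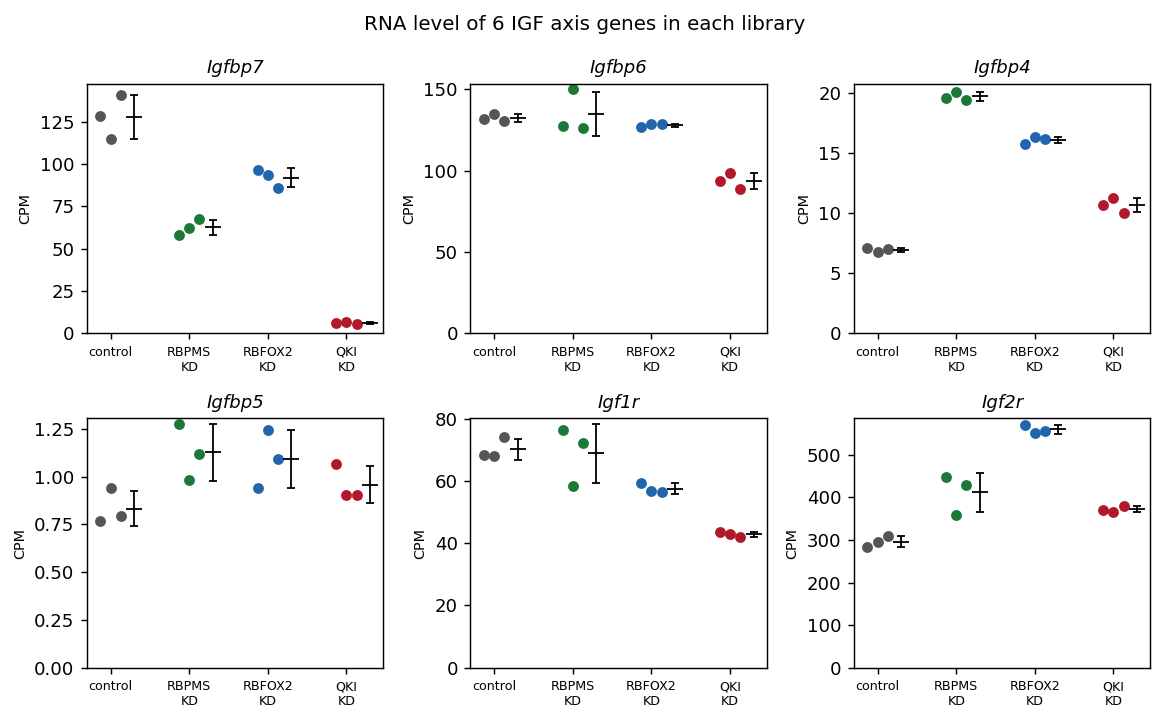
CPM (vertical axes, each from 0) of the 6 members with enough counts for a level in every library, with each point 1 library and the bars the mean ± SD of 3 libraries. Igfbp7 drops to 5.82 CPM in QKI knockdown, Igfbp4 is lowest in control, and 1 RBPMS-KD library lies apart from the other two for Igfbp6, Igf1r and Igf2r.

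Igfbp6, which prefers IGF2 over IGF1, did not pass the test in RBPMS or RBFOX2 knockdown. Its levels were 132, 135 and 130 CPM in control, 127, 150 and 126 CPM in RBPMS knockdown, 127, 128 and 129 CPM under RBFOX2 knockdown, and 93.9, 98.2 and 88.8 CPM in QKI knockdown. The high RBPMS-KD value was that of RBPMS-KD 2, and the QKI-KD libraries lay below every other library. The log2 fold change was 0.025 in RBPMS knockdown (95% interval -0.09 to 0.14, edgeR adjusted p = 0.721) and -0.064 without RBPMS-KD 2 (adjusted p = 0.117). It was -0.051 in RBFOX2 knockdown (95% interval -0.17 to 0.064, adjusted p = 0.442), although the RBFOX2-KD and control libraries did not overlap. The QKI knockdown value was -0.50 (SE 0.055).

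Igfbp5, a matrix-binding member of the family, was near 1 CPM throughout. It gave 0.768, 0.940 and 0.793 CPM in control, 1.28, 0.983 and 1.12 CPM in RBPMS knockdown, 0.940, 1.25 and 1.09 CPM under RBFOX2 knockdown, and 1.07, 0.905 and 0.903 CPM in QKI knockdown. Control lay below RBPMS knockdown in every library and touched the lowest RBFOX2-KD library. The log2 fold changes of 0.43 in RBPMS knockdown (SE 0.16, edgeR adjusted p = 0.0310) and 0.39 in RBFOX2 knockdown (SE 0.16, adjusted p = 0.0448) passed the p limit narrowly. Both passes were lost with no filter on low counts and without control 1 or control 3. The RBPMS pass was also lost with library totals alone and without RBPMS-KD 1 or 3. That in RBFOX2 knockdown was also lost in the authors' normalised table, with the replicate number as a block, and without RBFOX2-KD 2 or 3. The QKI knockdown value was 0.20 (SE 0.16).

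The remaining members were close to the detection limit, which 3 counts place at 0.0201 to 0.0282 CPM depending on the library. Among all values from 1 to 19 counts, 68.1% were even, against 50.9% of the largest values, and the cause of this was not tested. Igfbp3, the main IGF carrier of serum, had 0, 10 and 0 counts in control, 26, 16 and 18 in RBPMS knockdown, 30, 44 and 24 under RBFOX2 knockdown, and 12, 4 and 0 in QKI knockdown. The RBPMS-KD and RBFOX2-KD libraries lay above every control library, while QKI-KD and control overlapped. Since the groups in which Igfbp3 was high carried it past the filter, its values are given as a description without a p-value. Its log2 fold change was 2.80 in RBPMS knockdown (SE 0.85) and 3.24 in RBFOX2 knockdown (SE 0.82), and the size depended on 1 library. Without control 2, the only control library with counts, the values were 7.48 and 7.91, which then rest on a control at 0 and carry no meaning as a fold.

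Igfbp2 had 16, 10 and 30 counts in control, 12, 12 and 8 in RBPMS knockdown, 24, 24 and 16 under RBFOX2 knockdown, and 16, 10 and 12 in QKI knockdown. All 4 groups overlapped with at least 1 other, and no comparison passed the test. Igf2 had 8, 4 and 4 counts in control, 4, 18 and 6 in RBPMS knockdown, 14, 8 and 14 under RBFOX2 knockdown, and 6, 18 and 16 in QKI knockdown. Only knockdown libraries carried Igf2 past the filter, so its values are given as a description without a p-value. Its log2 fold change was 0.95 in RBPMS knockdown (SE 0.65), but 0.21 without RBPMS-KD 2, which held most counts of that group. It was 1.11 in RBFOX2 knockdown (SE 0.63), and 1.42 (SE 0.62) in QKI knockdown, where 1 library overlapped with control. Igf1 had 5 counts in the whole series, and 9 of 12 libraries held none. The Igf2 value in QKI knockdown depended on the processing and on single libraries, being 1.51 with library totals alone, 1.91 without control 1 and 1.82 without QKI-KD 1, and of the alternatives that tested it only these 3 took it past both limits. Both ligands were at or close to the detection limit in every group.

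**Figure D3:**
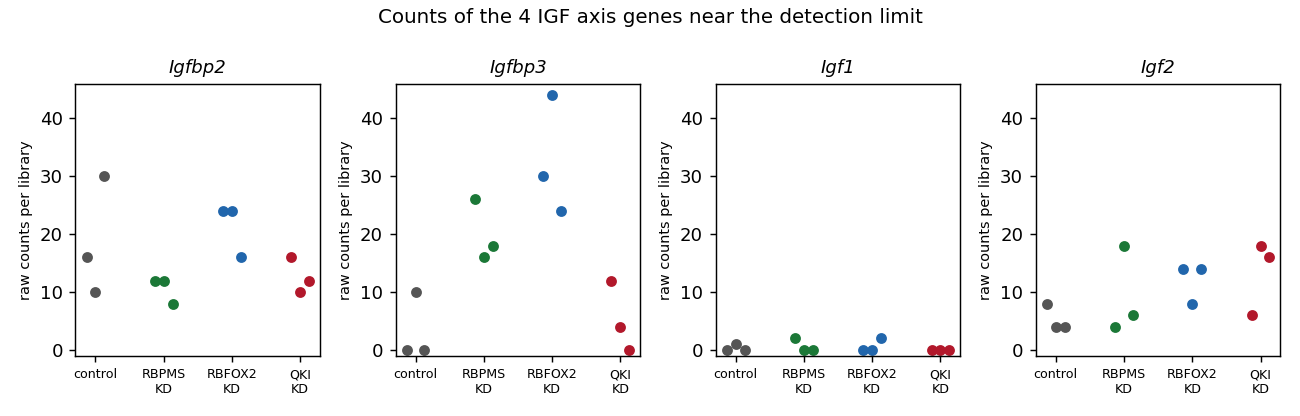
Raw counts per library (vertical axis) of Igfbp2, Igfbp3, Igf1 and Igf2 in the 4 groups, with each point 1 library of 111 to 152 M counts. Igfbp3 reaches 44 counts in RBFOX2 knockdown and is at 0 in 2 control libraries, while Igf1 does not exceed 2 counts anywhere.

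Igf1r, the signalling receptor, was at 68.3, 68.02 and 73.9 CPM in control, 76.2, 58.2 and 72.0 CPM in RBPMS knockdown, 59.4, 56.9 and 56.3 CPM under RBFOX2 knockdown, and 43.6, 42.9 and 42.0 CPM in QKI knockdown. The QKI-KD libraries lay below all others, the RBFOX2-KD libraries lay below control, and RBPMS-KD 2 was the only RBPMS-KD library below the control range. Igf1r was lower in RBFOX2 knockdown by a log2 change of -0.28 (SE 0.069, edgeR adjusted p = 0.00186). It did not pass in RBPMS knockdown, at -0.027 (SE 0.069, adjusted p = 0.759), and was 0.079 without RBPMS-KD 2 (adjusted p = 0.0955). The QKI knockdown value was -0.71 (SE 0.070).

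Igf2r, the clearance receptor, was higher than control in every knockdown. It was at 283, 297 and 310 CPM in control, 448, 360 and 428 CPM in RBPMS knockdown, 571, 552 and 557 CPM under RBFOX2 knockdown, and 371, 365 and 379 CPM in QKI knockdown. No knockdown library overlapped with control, and RBFOX2 knockdown lay above all other libraries. The rise in RBFOX2 knockdown was 0.92 on the log2 scale (1.89-fold, SE 0.059, edgeR adjusted p = 4.73e-10), just under the fold limit, which it passed in the authors' normalised table (1.003). The rise in RBPMS knockdown was 0.47 (SE 0.059, adjusted p = 1.98e-06), and 0.56 without RBPMS-KD 2 (adjusted p = 2.01e-11). The QKI knockdown value was 0.33 (SE 0.058).

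The counts of Igf2r per count of Igf1r gave a measure within each library. The ratio was 4.14, 4.36 and 4.19 in control, 5.87, 6.18 and 5.95 in RBPMS knockdown, 9.62, 9.71 and 9.88 under RBFOX2 knockdown, and 8.52, 8.51 and 9.03 in QKI knockdown. The 4 groups did not overlap. RBPMS-KD 2 stood beside its replicates on this ratio, although both of its receptor levels lay below theirs. The smallest p that an exact permutation test of 3 libraries against 3 can give is 0.1, so no test is given for the ratio.

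Setting the knockdowns against each other tests whether their effects differed. Between RBFOX2 and RBPMS knockdown none of the 8 members changed by both limits, against 7.52% of all genes, and 4 differed by adjusted p, against 56.7%. These were Igfbp7 and Igf2r, higher in RBFOX2 knockdown, and Igfbp4 and Igf1r, lower. The log2 fold change was 0.44 for Igf2r (edgeR adjusted p = 5.35e-06), -0.29 for Igfbp4 (adjusted p = 7.22e-05) and -0.26 for Igf1r (adjusted p = 0.00444). The Igf1r difference was not passed when libraries were scaled by totals only (-0.16, adjusted p = 0.0651) or in the authors' normalised table (-0.18, limma adjusted p = 0.102 and 0.098 at the 2 pseudocounts), and was -0.37 without RBPMS-KD 2 (adjusted p = 1.66e-07).

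For QKI knockdown against each of the others, Igfbp7 is also left out of the counts, since its QKI-KD values chose the set. Against RBPMS knockdown none of the remaining 7 members changed, where 12.2% of all genes did, and 4 differed, against 61.0%. Against RBFOX2 knockdown none of the 7 changed, where 18.4% of all genes did, and 4 differed, against 68.5%. These 4 were Igfbp4, Igfbp6, Igf1r and Igf2r, lower in QKI knockdown in both comparisons, which share the QKI-KD libraries. The median log2 fold change of the 7 members was -0.23 and -0.45, and that of all genes -0.010 and -0.0073. The member medians again include Igf2, at 0.47 and 0.31, so nothing is read from their distance to those of all genes. Igfbp4 was lower by a log2 fold change of -0.89 against RBPMS knockdown (edgeR adjusted p = 9.56e-11) and -0.59 against RBFOX2 knockdown (adjusted p = 1.26e-08). Igfbp6 was lower by -0.53 (adjusted p = 2.25e-07) and -0.45 (adjusted p = 1.09e-06), and Igf1r by -0.68 (adjusted p = 1.97e-07) and -0.43 (adjusted p = 3.78e-05).

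Igf2r was lower in QKI knockdown than in RBFOX2 knockdown by a log2 fold change of -0.59 (edgeR adjusted p = 8.79e-08). Against RBPMS knockdown the value was only -0.15 (adjusted p = 0.0377) with overlapping libraries, and this pass did not hold. It was lost with RLE scaling (edgeR adjusted p = 0.0637), library totals (0.81), DESeq2 (0.0613), a filter at 200 mean counts (0.141), the 6 libraries of the comparison alone (0.0929), and without RBPMS-KD 1 or 3 or any QKI-KD library. The sign turned to 0.030 in the authors' normalised table, and the value was -0.24 without RBPMS-KD 2 (adjusted p = 4.33e-06). The Igfbp3 values, again a description, were -2.03 (SE 0.79) against RBPMS knockdown and -2.47 (SE 0.76) against RBFOX2 knockdown.

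Around the members, a list of 32 genes of the pathway was examined, of which Pappa was not analysed here and 28 were tested. The list covers other binding proteins, proteases of binding proteins and their inhibitors, binders of Igf2 mRNA, the insulin receptor, adaptors, kinases and forkhead factors. In RBPMS knockdown 3 of 28 changed, 2 higher and 1 lower. In RBFOX2 knockdown 7 changed, 5 higher and 2 lower. In QKI knockdown 5 changed, 2 higher and 3 lower. These counts stand against the 9.66%, 11.7% and 17.5% of all genes given above. The list median was 0.049, 0.083 and -0.073 on the log2 scale.

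Kazald1, a secreted protein with an IGFBP domain, was lower than control in every knockdown. It was at 46.6, 48.1 and 49.7 CPM in control, 18.6, 23.0 and 21.3 CPM in RBPMS knockdown, 14.8, 15.5 and 13.3 CPM under RBFOX2 knockdown, and 18.1, 18.9 and 16.6 CPM in QKI knockdown. No knockdown library reached the lowest control. The log2 fold change was -1.19 in RBPMS knockdown (SE 0.070, edgeR adjusted p = 1.94e-10) and -1.72 in RBFOX2 knockdown (SE 0.071, adjusted p = 1.58e-12), and the QKI knockdown value was -1.43 (SE 0.071). Stc1, a stanniocalcin that inhibits the IGFBP proteases of the pappalysin family, was at 4.18 ± 0.21 CPM in control (SD, n = 3), 3.11 ± 0.14 in RBPMS knockdown, 5.84 ± 0.19 in RBFOX2 knockdown and 1.18 ± 0.17 in QKI knockdown. It differed in opposite directions in the first 2 knockdowns, with -0.42 (adjusted p = 5.79e-04) and 0.48 (adjusted p = 1.01e-04), and the QKI knockdown value was -1.82 (SE 0.099).

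Of the proteins that bind Igf2 mRNA, Igf2bp3 fell in RBFOX2 knockdown, from 62.3 ± 0.60 CPM to 25.9 ± 0.57 CPM (SD, n = 3), a log2 change of -1.27 (SE 0.048, edgeR adjusted p = 4.47e-13). It was 79.2 ± 4.8 CPM in RBPMS knockdown, where it was higher by 0.35 (adjusted p = 5.03e-06), and 59.1 ± 3.2 CPM in QKI knockdown. Igf2bp2 was 128 ± 4.1 CPM in control, 108 ± 5.0 in RBPMS knockdown, 92.8 ± 0.34 in RBFOX2 knockdown and 51.8 ± 2.2 in QKI knockdown, the last with a log2 fold change of -1.31 (SE 0.041). Igf2bp1, named after its values were seen, was 5.82 ± 0.23 CPM in control, 4.49 ± 0.32 in RBPMS knockdown, 4.07 ± 0.25 in RBFOX2 knockdown and 5.51 ± 0.16 in QKI knockdown, with log2 fold changes of -0.38 (adjusted p = 3.29e-04) and -0.52 (adjusted p = 1.22e-05) in the first 2 knockdowns. H19, the imprinted non-coding RNA next to Igf2, had 169, 39 and 27 counts in control, 229, 242 and 62 in RBPMS knockdown, 404, 465 and 593 under RBFOX2 knockdown and 35, 33 and 164 in QKI knockdown. Its replicates spread widely, and the RBFOX2-KD libraries stood above all others. The log2 fold change there was 2.57 (SE 0.59, adjusted p = 0.00117), and it was 3.92 without control 1, which held most of the control counts. In RBPMS knockdown H19 was at 1.34 and did not pass the p limit. It passed there with no filter (edgeR adjusted p = 4.75e-06), without control 1 (2.70, 0.00235) and without RBPMS-KD 3 (1.73, 0.0238). It did not pass without RBPMS-KD 2 (1.19, 0.127).

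Of the signalling genes, Irs1, an adaptor of the IGF1 and insulin receptors, rose in RBFOX2 knockdown from 5.40, 5.94 and 5.71 CPM to 16.6, 16.8 and 18.4 CPM. This was a log2 change of 1.60 (SE 0.085, edgeR adjusted p = 4.05e-11). Irs1 was at 5.69, 4.20 and 5.06 CPM in RBPMS knockdown (-0.20, adjusted p = 0.0723) and at 7.71, 8.63 and 8.14 CPM in QKI knockdown (0.52, SE 0.087). The RBPMS value passed the p limit with library totals (edgeR adjusted p = 0.0316), with no filter (0.0208), with DESeq2 (0.0496) and without RBPMS-KD 1 (-0.30, edgeR adjusted p = 0.00719). It was -0.084 without RBPMS-KD 2 (edgeR adjusted p = 0.382). Grb14, an adaptor that inhibits the insulin receptor, was 36.1 ± 2.1 CPM in control (SD, n = 3), 62.1 ± 1.8 in RBPMS knockdown, 73.1 ± 0.17 in RBFOX2 knockdown and 35.2 ± 1.0 in QKI knockdown. The RBFOX2 change of 1.02 (SE 0.042, adjusted p = 1.77e-12) lay at the fold limit and was 0.97 without control 2, and the RBPMS value was 0.78 (adjusted p = 7.17e-11). Insr, the insulin receptor, was lower by -0.47 in RBPMS knockdown (adjusted p = 3.71e-06) and -0.48 in RBFOX2 knockdown (adjusted p = 2.28e-06), with a QKI knockdown value of -0.68 (SE 0.061). Insr and the next 3 genes were named after their values were seen.

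The other changed genes had low counts. Pappa2, a protease that cleaves IGFBP3 and IGFBP5, was at 0.198 ± 0.028 CPM in control (SD, n = 3), 0.783 ± 0.12 in RBPMS knockdown, 0.932 ± 0.070 in RBFOX2 knockdown and 0.614 ± 0.14 in QKI knockdown. It rose by 1.98 (SE 0.22, edgeR adjusted p = 7.07e-07) and 2.24 (SE 0.22, adjusted p = 1.1e-07) on the log2 scale in the first 2 knockdowns, and the QKI knockdown value was 1.64 (SE 0.23). Igfbpl1, an IGFBP-like protein, held 6 to 29 counts per library, with 12, 6 and 6 in control. Mostly knockdown libraries carried it past the filter on low counts, which favours the call of a rise. It is among the genes counted as changed in RBPMS and RBFOX2 knockdown. The log2 fold changes were 1.34 for RBPMS knockdown (edgeR adjusted p = 0.0306) and 1.62 for RBFOX2 knockdown (adjusted p = 0.00836). The first was not passed without control 2, control 3 or RBPMS-KD 1. Stc2, a second stanniocalcin, measured 0.543 ± 0.14 CPM in control against 1.57 ± 0.38 CPM in QKI knockdown, with 1.53 (SE 0.24) as log2 fold change. With RBPMS depleted its mean was 1.05 ± 0.34 CPM, a log2 fold change of 0.96 (edgeR adjusted p = 0.00334), just under the fold limit. That value fell to 0.65 without RBPMS-KD 2 (adjusted p = 0.0282), which held 193 counts against 80 and 106 in its replicates. RBFOX2-KD libraries averaged 0.753 ± 0.087 CPM, and the log2 fold change of 0.47 did not pass the p limit (adjusted p = 0.125).

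**Figure D4:**
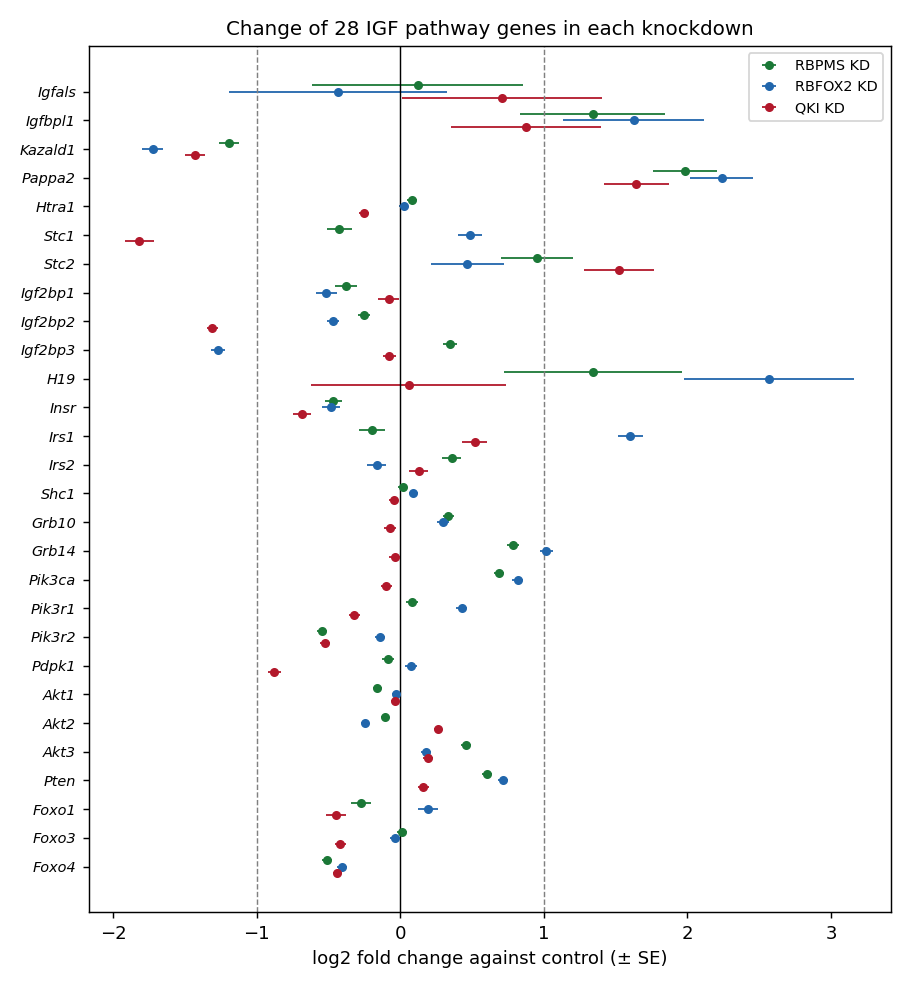
Log2 fold change against control (horizontal axis, ± SE from the fit over 12 libraries) of the 28 tested pathway genes in each knockdown, with dashed lines at the fold limit. Kazald1 lies left of -1 in all knockdowns. Irs1 lies right of 1 in RBFOX2 knockdown, and H19 does so in RBFOX2 and RBPMS knockdown. The kinases and forkhead factors at the bottom stay within the dashed lines.

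The genes whose pattern was most like that of Igfbp7 were found by the root mean square difference of log2 CPM over the 12 libraries, after centring each gene on its own mean. The search covered 10046 tested genes whose mean reached 5 CPM. Placeholder symbols, such as those beginning with LOC or RGD, and microRNA symbols were left out of it. Of the 5 nearest, 4 are reported here, Esm1 (0.426), Abracl (0.441), Epyc (0.451) and Col6a3 (0.471), against a median of 1.75 over all candidates. Esm1 encodes a secreted proteoglycan, Epyc a small leucine-rich proteoglycan and Col6a3 a chain of collagen VI. All 4 were lowest in QKI knockdown, at 11.5, 11.3, 16.1 and 4.28 CPM in that order, against 232, 134, 149 and 43.4 CPM in control. Their levels in the other knockdowns were not tested against those of Igfbp7. With RBPMS depleted, Esm1 was at 224 CPM and Col6a3 at 33.2 CPM, and with RBFOX2 depleted they were at 164 and 66.4 CPM. The measure is led by the QKI-KD libraries and is a description of these 12 libraries.

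**Figure D5:**
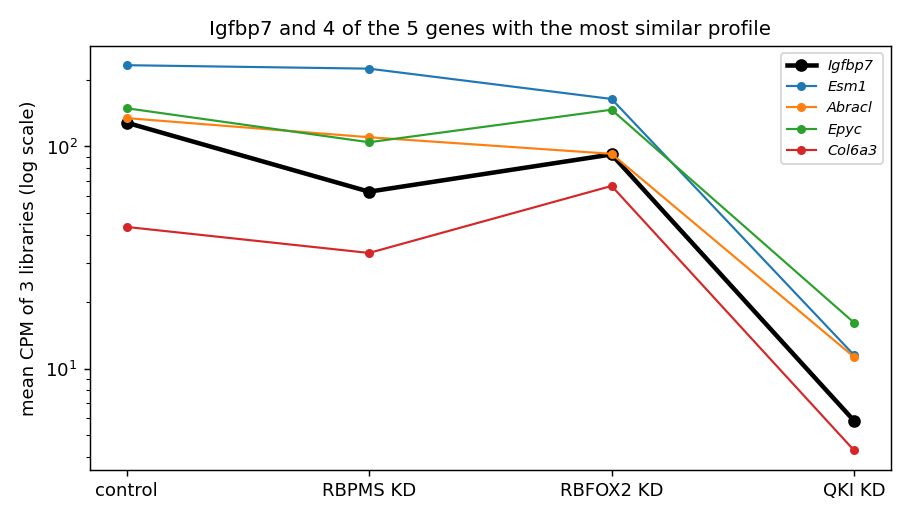
Mean CPM of 3 libraries (vertical axis, log scale) in each group for Igfbp7 (thick black line) and 4 of the 5 genes with the nearest profile. All lines are lowest in QKI knockdown, and Igfbp7 is the one whose RBPMS knockdown level, 62.6 CPM, is 48.9% of its control level.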

How the data were processed

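Poly(A) RNA from 12 PAC1 libraries was prepared with a directional kit. Per the labels, the submitters' processing notes name FastQC 0.11.2, MultiQC 1.8, STAR 2.5.2a, edgeR 3.28.1, DESeq2 1.30.0 and the rat build mRatBN7.2. The study's methods give STAR in a later version, featureCounts with RefSeq genes, a noise filter and quantile normalisation. The authors deposited raw counts per gene for 33294 symbols and a normalised signal for 22320 of them, quantile normalised and never below 5. Whether counting used strand, and how shared reads were treated, is not given in the sources used here, so genes with close copies or antisense partners (Igf2, H19 and the Igf2bp genes) are uncertain. The study describes subsampling to equal depth, which the unequal totals of the count table do not show.

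The tests of counts used edgeR 4.0.16 under R 4.3.3 (filterByExpr, TMM, glmQLFit and glmQLFTest, two-sided, 1 coefficient per group over 12 libraries, common dispersion 0.00241), which kept 99.99% of counts. P-values were adjusted over all tested genes. The SE is the absolute log2 fold change divided by the square root of F. Scripts were tested on simulated data. Detection limits cover counting error only, while the SE and interval of a fold change also hold the spread between libraries. DESeq2 1.42.0, and limma 3.58.1 on log2 of the normalised signal plus 1 or 10, served as alternatives, beside other scalings, filters, halved counts and left-out libraries.

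Members, pathway genes and markers were chosen with earlier results of these data known. Named genes were the siRNA targets, the 10 members, pathway genes changed in at least 1 knockdown whose mean reached 1 CPM, and the 5 genes nearest to Igfbp7, of which 1 is not reported here. Symbols were used as deposited, and all 10 members matched the RefSeq GRCr8 table, whose coordinates are given for promoters only.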

Additional observations from a re-analysis of the deposited data

How the results depend on the processing

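Of 1445 alternative values for single genes, 1357 kept their direction and their side of the p limit, 36 changed sign, 40 lost a pass and 12 gained one. The number of members changed, here with Igfbp3 and Igfbp7 counted, was 3, 2 and 1 in RBPMS, RBFOX2 and QKI knockdown, 0 in RBFOX2 against RBPMS knockdown and 2 in QKI against each of the others. It was 2 in RBPMS knockdown with only genes of at least 200 mean counts, 3 in RBFOX2 knockdown with the normalised signal at either pseudocount (Igf2r added), 1 in RBFOX2 knockdown against control with only genes of at least 200 mean counts, 2 in QKI knockdown against control with library totals alone (Igf2 added), and 1 in QKI against RBPMS knockdown with DESeq2, with the 200-count filter and with the normalised signal at pseudocount 10. It was 1 in QKI against RBFOX2 knockdown with DESeq2 and with the 200-count filter. Leaving out 1 library at a time gave 2 to 3 members in RBPMS knockdown, 1 to 2 in QKI knockdown and 1 to 2 in QKI against RBPMS knockdown. Over all genes, the 200-count filter, which tests fewer genes, gave 692, 840 and 1484 changed genes in RBPMS, RBFOX2 and QKI knockdown, where the reported fit gave 1781, 2156 and 3231, and 435, 929 and 1515 in RBFOX2 against RBPMS, QKI against RBPMS and QKI against RBFOX2 knockdown, where it gave 1386, 2248 and 3389. The normalised signal at pseudocount 10, which shrinks low genes, gave 1071 and 1295 in RBPMS and RBFOX2 knockdown, and 688 and 1372 in RBFOX2 and QKI against RBPMS knockdown. Scaling by library totals shifted the median of all genes to 0.108 and 0.12 in the last 2 comparisons. Sign changes were limited to values near 0 or genes with few counts, and their cause was not tested. In RBPMS knockdown Igfbp6 was -0.020 with library totals and -0.011 with the normalised signal, and left-out libraries gave -0.064 to 0.068 for Igfbp6 and -0.11 to 0.079 for Igf1r. In RBFOX2 knockdown Igfbp6 was 0.0036 with totals and 0.016 with the normalised signal, and Igfbp2 was -0.0057 at pseudocount 10 and -0.20 to 0.65 with libraries left out. In QKI knockdown left-out libraries gave -0.81 to 0.039 for Igfbp2, -0.49 to 5.45 for Igfbp3 and -1.14 to 1.41 for H19. There H19 was -0.0023 and -0.0047 with the normalised signal, Igf2bp3 0.0087 with totals, and Grb14 0.050 with totals, 0.054 at pseudocount 1 and 0.053 at pseudocount 10. In RBFOX2 against RBPMS knockdown Igfbp5 was 0.060 and Igfbp6 0.024 with totals, Igfbp6 was 0.028 with the normalised signal, and left-out libraries gave -0.15 to 0.059 for Igfbp5, -0.12 to 0.012 for Igfbp6 and -0.14 to 0.90 for Igf2. In QKI against RBPMS knockdown the normalised signal gave -0.022 and -0.016 for Igfbp2 and 0.030 for Igf2r. In QKI against RBFOX2 knockdown left-out libraries gave -0.020 to 0.72 for Igf2. Replicate numbers did not pair the libraries. Correlations of deviations between libraries of the same number ran from -0.178 to 0.154, 1 of 18 above 0.1, and a library correlated best with its own number in 10 of 36 checks. With the replicate number as a block, 1752, 2110 and 3203 genes changed in RBPMS, RBFOX2 and QKI knockdown, members changed stayed at 3, 2 and 1, and the only member that moved across the p limit was Igfbp5 in RBFOX2 knockdown (edgeR adjusted p = 0.0609). Igf1, Igf2, Igfbp2 and Igfbp3 had at most 44 counts in a library.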
